A study of Mus musculus with 5 samples.

Results

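The proliferin genes Prl2c2, Prl2c3 and Prl2c5 were examined in RNA-seq of 2 neural stem cell (NSC) samples and 3 STO samples. They were found as the transcript rows whose RefSeq identifier maps to 1 of these symbols, which gave 4 rows of 40201 per sample and 3 genes of 25414. The 3 genes were chosen by their FPKM values in these same samples, so their levels and the contrast between the cell types are given as a description, with no test. The NSCs were primary cells from the cortex of mouse embryos, labelled C57BL/6 and used at passages 5 to 8, grown on poly-l-ornithine and laminin with EGF, bFGF, heparin and B27. STO cells are a line of SIM embryonic fibroblasts that is widely used as a feeder layer. They were also labelled C57BL/6, were past passage 30 and were kept in DMEM with fetal bovine serum. No serum is listed for the NSC medium, so cell type and medium cannot be told apart in any value below. FPKM, the number of fragments on a transcript scaled to its length in kilobases and to the depth of the library, was deposited with a lower and an upper bound for every row.

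Proliferins are secreted glycoproteins of the prolactin and growth hormone family. They are made in large amounts by trophoblast giant cells of the mouse placenta and were first found as messages induced by serum in cultured mouse fibroblasts. They carry mannose 6-phosphate and bind the cation-independent mannose 6-phosphate receptor, which is also the IGF2 receptor, and they promote the migration of endothelial cells. The proliferin promoter is a classical example of a composite element at which AP-1 and the glucocorticoid receptor act together.

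The paralogs are nearly identical, and this bears on how far their values can be told apart. In the GENCODE M1 annotation of NCBIM37, the assembly also called mm9, each has 5 exons. The Prl2c2 and Prl2c3 transcripts are both 850 bases long and differ at 4 bases (99.5% identity), of which 3 lie in the 675 coding bases. Prl2c5 has a transcript of 844 bases and differs from Prl2c2 at 28 of 843 aligned bases (96.7% identity) and from Prl2c3 at 30 (96.4% identity). Only fragments that cover a differing base can assign a read to 1 paralog. The sequences around the coding bases at which Prl2c2 and Prl2c3 differ are shown for this reason. Differences outside the coding part serve as well and are not shown. Positions count from the first base of the start codon of Prl2c2, capitals mark bases at which the 3 paralogs are not all alike, and each sequence is written 5′ to 3′ on the coding strand.

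The first coding difference, T14C from Prl2c2 to Prl2c3, lies in exon 1. The stretches are chr13:13097563-13097593 (minus strand) for Prl2c2, chr13:12892249-12892279 (minus strand) for Prl2c3 and chr13:13275049-13275079 (plus strand) for Prl2c5.
Prl2c2: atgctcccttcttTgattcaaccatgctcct
Prl2c3: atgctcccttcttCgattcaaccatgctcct
Prl2c5: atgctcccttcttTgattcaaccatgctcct

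The second, C200A, lies in exon 2, at chr13:13094401-13094428 (minus strand) for Prl2c2, chr13:12889098-12889125 (minus strand) for Prl2c3 and chr13:13278205-13278232 (plus strand) for Prl2c5.
Prl2c2: agaagtttcagaactgttcaCtgaAttt
Prl2c3: agaagtttcagaactgttcaAtgaAttt
Prl2c5: agaagtttcagaactgttcaCtgaGttt

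The third, T319G, lies in exon 4 and is shown within a stretch of 60 coding bases of that exon, at chr13:13089674-13089733 (minus strand) for Prl2c2, chr13:12884381-12884440 (minus strand) for Prl2c3 and chr13:13282854-13282913 (plus strand) for Prl2c5. Here Prl2c3 differs from Prl2c2 at 1 base and Prl2c5 at 5.
Prl2c2: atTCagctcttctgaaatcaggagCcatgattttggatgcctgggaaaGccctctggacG
Prl2c3: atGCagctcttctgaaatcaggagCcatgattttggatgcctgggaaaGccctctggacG
Prl2c5: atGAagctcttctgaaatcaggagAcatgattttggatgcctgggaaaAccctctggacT

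Between Prl2c2 and Prl2c3 the longest run without a difference was 465 bases. Of the 701 windows of 150 bases in the Prl2c2 transcript, 150 being the read length, 352 (50.2%) were also found without a mismatch in Prl2c3, and the other 349 (49.8%) were found in no other protein-coding gene. Each of the 695 windows of Prl2c5 was found in that gene alone. In these GENCODE transcripts a single read can therefore be placed on Prl2c5 from any window. On Prl2c2 or Prl2c3 it can be placed from only 49.8% of windows, and the mate of a pair adds bases to this. The deposited identifiers are RefSeq transcripts, whose own sequences were not compared here.

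**Figure D1:**
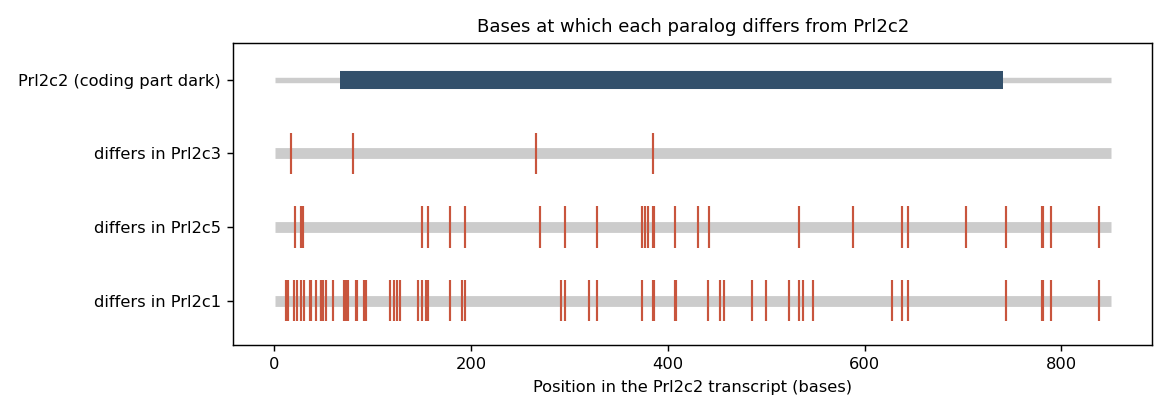
Bases at which the transcripts of Prl2c3, Prl2c5 and, for comparison, Prl2c1 differ from the Prl2c2 transcript, plotted along its 850 bases, with the coding part in dark. Prl2c3 differs at 4 bases, all in the left part of the transcript, Prl2c5 at 28 and Prl2c1 at 61.

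The 3 genes lie apart on chromosome 13 within 401.1 kb. In the deposited mm9 coordinates Prl2c3 spans 12883088 to 12892346, Prl2c2 13088391 to 13097597 and Prl2c5 13274983 to 13284192, so that Prl2c2 sits between the other two, 196 kb from Prl2c3 and 177.4 kb from Prl2c5. Another row, NM_011954, spans 12883083 to 12892325 and overlaps Prl2c3, but its identifier maps to no symbol in the table used. It was kept apart.

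All 4 rows, and NM_011954, were listed at 0 in both NSC samples, with both bounds at 0. A 0 is given here as listed and does not show that the transcript was absent. In bulk samples, fewer cells that express a gene and less RNA per cell cannot be told apart.

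Prl2c2 (NM_031191) was by far the highest of the paralogs in STO cells. It was listed at 576, 616 and 643 FPKM in STO replicates 1, 2 and 3. Its bounds were 564 to 587, 605 to 627 and 633 to 653 FPKM, so the bounds of the 3 replicates did not overlap one another. The mean was 612 ± 33.7 FPKM (SD, n = 3), a coefficient of variation of 5.51%. Among the 84 other genes whose mean FPKM in STO cells lay within 1.5 times that of Prl2c2, the median coefficient of variation was 6.39% and the range 0.745% to 20.5%, so Prl2c2 varied between the replicates about as much as genes of similar level. If the distance from a value to its upper bound is read as 2 standard deviations of a Poisson count, 9951, 12195 and 16879 fragments stood behind the 3 values. Such intervals describe 1 library each and not the spread between replicates. They may also hold uncertainty in dividing reads between rows, so the implied fragments are not counts. How Cufflinks shared reads between paralogs was not tested.

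Prl2c3 (NM_011118) was listed at 6.86, 8.04 and 8.91 FPKM in the 3 STO replicates. Every pair of replicates had overlapping bounds, which ran from 5.49 to 8.23, from 6.77 to 9.30 and from 7.74 to 10.1 FPKM. The mean was 7.94 ± 1.03 FPKM (SD, n = 3). Read in the same way, with the same limit, the bounds implied 99.9, 161 and 230 fragments. NM_011954, at the same locus, was listed at 2.13 FPKM in STO replicate 1, with bounds of 1.21 and 3.05, and at 0 in STO replicates 2 and 3. Added to Prl2c3, it gave 8.99, 8.04 and 8.91 FPKM, with a coefficient of variation of 6.12% against 13.0% for NM_011118 alone. STO replicate 1 was thus the lowest of the 3 for NM_011118 alone and the highest for the sum.

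Prl2c5 was near the lower end of what these libraries show. Its rows NM_181852 and NM_001311129 have the same locus. NM_181852 was listed at 0.175, 0.662 and 1.27 FPKM in STO replicates 1, 2 and 3, and NM_001311129 at 0.440, 0.101 and 0. The share of NM_181852 in the sum of both was 28.5%, 86.7% and 100%. The replicates therefore differed in which transcript was listed as the larger, on few implied fragments, from 1.30 to 35.1 per value above 0. The bounds of NM_181852 ran from 0 to 0.432 FPKM in STO replicate 1 and from 0.844 to 1.70 in STO replicate 3 and did not overlap. The sums of both rows were 0.615, 0.763 and 1.27 FPKM, with a mean of 0.884 ± 0.345 FPKM (SD, n = 3).

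**Figure D2:**
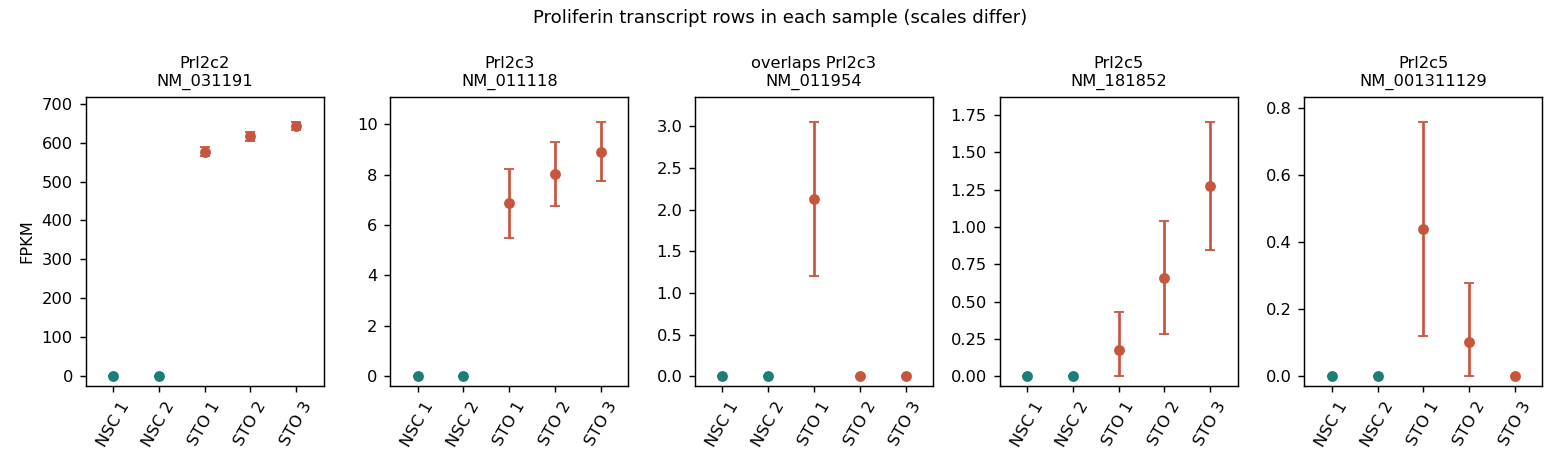
FPKM of each proliferin row in the 2 NSC and 3 STO samples, with bars from the lower to the upper deposited bound and a separate linear axis per row. Every row is at 0 in both NSC samples, Prl2c2 lies between 576 and 643 in STO cells, and the rows of Prl2c5 and NM_011954 vary most between STO replicates.

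The order of the levels, Prl2c2 above Prl2c3 above Prl2c5, was found in each of the 3 STO replicates, and the bounds of the 3 genes did not overlap in any of them. Prl2c2 made up 98.7%, 98.6% and 98.4% of the summed proliferin FPKM. Its FPKM was 83.9, 76.7 and 72.1 times that of Prl2c3. It was 936, 808 and 505 times that of Prl2c5. Prl2c3 amounted to 1.19%, 1.30% and 1.39% of Prl2c2, with a mean of 1.29% ± 0.0979 (SD, n = 3), and Prl2c5 to 0.107%, 0.124% and 0.198%. The gap between the 2 genes whose transcripts differ at 4 bases was thus over 70-fold in every replicate. The part that reads shared with Prl2c2 had in the low values of Prl2c3 was not tested.

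In the whole list of 25414 genes, Prl2c2 held rank 81, 70 and 72 in STO replicates 1, 2 and 3, with 99.7% of genes below it. Prl2c3 ranked between 6990 and 7787, and Prl2c5 between 10492 and 11104. Of the 9382 genes listed at 0 in both NSC samples, 176 had a mean of at least 1 FPKM in STO cells, 51 of at least 10 and 7 of at least 100. Prl2c2 had the highest value of these genes in each STO replicate. Prl2c3 took rank 57 to 70 among them and Prl2c5 rank 163 to 214. On the scale of log2(FPKM + 1), the STO mean exceeded the NSC mean by 9.26 for Prl2c2, by 3.15 for Prl2c3 and by 0.90 for Prl2c5. Since the NSC values are 0, these differences depend on the pseudocount, and no fold is given.

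**Figure D3:**
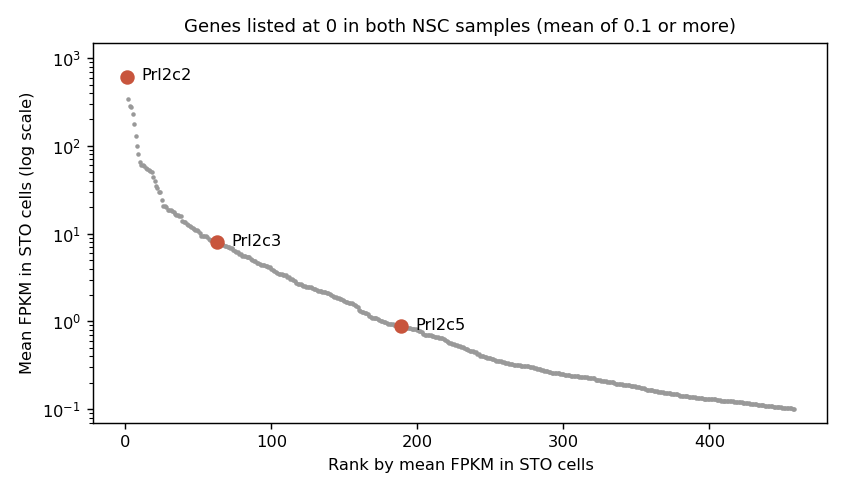
Mean FPKM in STO cells (log axis) of the genes listed at 0 in both NSC samples, in order of that mean, for means of at least 0.1. Prl2c2 stands first at 612 FPKM, Prl2c3 lies at 7.94 and Prl2c5 at 0.884.

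The genes most like the summed proliferin level were sought by the Euclidean distance of log2(FPKM + 1) over the 5 samples. The nearest was Bgn, which encodes the matrix proteoglycan biglycan, at a distance of 0.49. It was listed at 508, 540 and 497 FPKM in the STO replicates, and at 0.0262 and 0 in the NSC replicates. The complement component gene C3 followed at 1.25. The collagen genes Col1a2 and Col3a1 came next at 1.34 and 1.51, and then Pcolce, whose product enhances procollagen processing, at 1.66. With 2 cell types, any gene that is high in STO cells and near 0 in NSCs scores as alike, so the distance describes level and pattern only.

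The identity of the cells was checked against markers. Nes, Sox2, Pax6 and Olig2, which mark neural stem and progenitor cells, summed to 943 to 989 FPKM in the NSC samples and to 0.0380 to 0.0724 in the STO samples. In NSCs the highest of these was Olig2, at 499 and 493 FPKM, and the lowest Pax6, at 5.04 and 5.22. Gfap, an astrocyte gene that the paper used as a negative control in RT-PCR of its NSCs, was at 15.9 and 16.9 FPKM in NSCs. RT-PCR and FPKM are unlike measures, so these values are not set against that result. In STO cells Gfap was at no more than 0.0163 FPKM. The fibroblast matrix genes Col1a1, Col1a2, Col3a1 and Fn1 summed to at most 4.25 FPKM in NSCs and to 1283 to 1397 in STO cells, and thus stood high in the same samples as Prl2c2. Their part in its level was not tested. Because proliferin is known as a trophoblast product, 10 trophoblast genes were examined as well. They summed to 0.392 to 0.643 FPKM in the NSC samples and to 0.458 to 0.556 in the STO samples. Tpbpa, Gcm1, Ctsq and Synb were at 0 in all 5 samples, no sample had Cdx2, Eomes, Elf5 or Hand1 above 0.0212 FPKM, and the highest value was 0.517 FPKM for Syna.

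The other genes of the prolactin family that were matched by symbol were also nearly silent. Most lie in a cluster elsewhere on chromosome 13 and encode placental hormones. No row matched the symbol Prl2c4 in the table used, so no level is given for it. Whether a row without a symbol belongs to it was not checked. NM_011954, listed at 2.13 FPKM in STO replicate 1, maps to no symbol and was not counted with this family. Of 24 listed genes, the other 23 were analysed. Of these, 9 were at 0 in all samples, and the highest value in any sample was 0.242 FPKM, for Prl7a1 in STO replicate 2. Their sum was 0.194 to 0.665 FPKM in STO samples, below the mean of Prl2c5 alone. Prl2c1, another gene of the Prl2c group, was at 0 in 4 samples and at 0.0380 FPKM in STO replicate 3. Its transcript is 92.8% identical to that of Prl2c2. Prl7d1, which encodes the angiogenesis inhibitor known as proliferin-related protein, was at 0 in both NSC samples and at 0.0446, 0.0778 and 0.146 FPKM in the STO replicates. Prl itself, the pituitary hormone, was at 0 throughout.

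Promoter sequences of Prl2c3 and Prl2c5 were available from RefSeq (GRCm38.p6). They are shown because the AP-1 element is the best-known feature of this promoter. Each is the 250 bases before the annotated start, chr13:12800080-12800329 (minus strand) for Prl2c3 and chr13:13182466-13182715 (plus strand) for Prl2c5. Capitals mark matches to TGANTCA, the AP-1 letters, whose reverse complement is the same pattern, and to TATATAA, searched on both strands.
Prl2c3: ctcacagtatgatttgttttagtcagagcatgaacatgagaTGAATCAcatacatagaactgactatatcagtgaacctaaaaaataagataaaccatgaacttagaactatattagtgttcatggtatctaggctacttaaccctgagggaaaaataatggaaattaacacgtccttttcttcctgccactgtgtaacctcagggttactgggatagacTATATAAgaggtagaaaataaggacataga
Prl2c5: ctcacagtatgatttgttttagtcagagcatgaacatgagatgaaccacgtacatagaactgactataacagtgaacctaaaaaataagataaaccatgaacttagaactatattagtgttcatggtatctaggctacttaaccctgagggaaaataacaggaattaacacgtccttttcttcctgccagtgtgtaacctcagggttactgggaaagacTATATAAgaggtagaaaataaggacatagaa

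The windows differed at 8 of 249 aligned bases (96.8% identity). TGANTCA matched in Prl2c3 with its first base at -209 from the start and did not match in Prl2c5, where the same place reads differently. It matched in 6.8% of 32817 promoter windows of this length. TATATAA matched in both, at -30 and -31, against 3.0% of windows. A match is a description of letters and does not show that a factor binds. Prl2c2 has no entry in that table, so neither window can be set beside that of the highest paralog. A link between these letters and the levels was not tested.

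For genes other than the members, STO cells were compared with NSCs by limma on log2(FPKM + 1) over 12292 genes with a mean of at least 1 FPKM in either cell type, with Benjamini-Hochberg adjusted p under 0.05 as the threshold. The background was high: 41.9% of the genes tested were called higher in STO cells and 43.7% lower, with a median difference of -0.023. Every count of calls in the lists below is to be read beside these shares. The labels do not say that replicates came from separate cultures, so the p-values measure the spread between these samples, which may be technical. The pathway lists cover receptors and mannose 6-phosphate sorting, Igf2, prolactin receptor signalling, AP-1 and glucocorticoid receptor genes, and serum-responsive growth genes. Prolactin receptor signalling is listed as that of the related hormone and is not given here as a route of proliferin. Of the 28 genes in these lists, 27 were tested, and 22 were higher, 3 lower and 2 not called. Their median difference was 1.13 on the log2(FPKM + 1) scale. The lists were set with earlier results of these data known.

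Of 6 listed genes for receptors and for the attachment of mannose 6-phosphate, 5 were tested, and 4 were higher and 1 lower in STO cells, with a median difference of 0.41. Igf2r, the IGF2 and mannose 6-phosphate receptor to which proliferin binds, was listed at 7.79 and 7.19 FPKM in NSCs and at 79.2, 81.4 and 78.4 in STO cells. The groups did not overlap, and the difference was 3.25 ± 0.05 (SE) in log2(FPKM + 1), with limma adjusted p = 2.4e-08. M6pr, the smaller receptor for the same tag, rose from 33.7 ± 1.68 (SD, n = 2) to 45.2 ± 1.09 FPKM (SD, n = 3), with limma adjusted p = 0.00049. Prlr, the prolactin receptor, was at 0 in all 5 samples. Of the subunits of the phosphotransferase that starts the tag, Gnptab rose by 0.59 (limma adjusted p = 0.0001), while Gnptg fell from 32.1 ± 2.34 (SD, n = 2) to 12.3 ± 1.69 FPKM (SD, n = 3), with limma adjusted p = 5.8e-05. Nagpa, which uncovers the tag, was at 5.05 ± 0.00850 FPKM (SD, n = 2) in NSCs and 5.69 ± 0.158 (SD, n = 3) in STO cells. Its limma adjusted p of 0.036 became 0.055 to 0.096 when any 1 of the 5 samples was left out. Igf2, a growth factor cleared by the same receptor, was listed at 0.398 and 0.206 FPKM in NSCs and at 107, 113 and 102 in STO cells, with limma adjusted p = 1e-08.

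In the list of prolactin receptor signalling, 6 of 8 genes were called higher in STO cells, 1 lower and 1 neither, with a median difference of 1.11. The largest difference was that of Socs3, a feedback inhibitor of cytokine receptors, at 5.89 and 6.25 FPKM in NSCs and at 59.9, 55.5 and 54.0 in STO cells, or 3.02 ± 0.06 (SE) in log2(FPKM + 1) with limma adjusted p = 6.3e-08. Socs1, another member of this inhibitor family, rose by 2.60. Stat5a, a transcription factor gene of prolactin signalling, rose from 0.739 ± 0.133 (SD, n = 2) to 6.69 ± 0.309 FPKM (SD, n = 3). The difference was 2.15, with limma adjusted p = 4.5e-07. Stat5b, its close relative in the same signalling, was at 8.38 ± 0.314 FPKM (SD, n = 2) in NSCs. In STO cells Stat5b was at 8.04 ± 0.552 FPKM (SD, n = 3), with limma adjusted p = 0.48. Cish and Socs2, targets of STAT5, rose by 1.13 and 1.09. Stat3 fell by 0.29 and the kinase gene Jak2 rose by 0.21, with limma adjusted p of 0.0018 and 0.019. The adjusted p of Jak2 was 0.051 without STO replicate 3, and that of Stat3 was 0.055 where transcripts were tested singly.

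Of the AP-1 subunits and the glucocorticoid receptor, 7 of 8 genes were higher in STO cells and none was lower, with a median difference of 2.98. Fosl1, which encodes the FOS-related subunit FRA1, was listed at 0 in both NSC samples and at 54.3, 56.3 and 55.7 FPKM in STO cells. Fosb was listed at 0.324 and 0.318 FPKM in NSCs and at 61.2, 54.5 and 56.5 in STO cells. For both genes the 3 STO values stood well apart from the NSC values, and limma adjusted p was 5.1e-09 and 7.8e-09. Fosl2 rose by 3.61, Fos by 2.99 and Junb by 2.98 in log2(FPKM + 1), with limma adjusted p of 4e-08, 2.4e-08 and 1.5e-07. Jun, already at 88.3 FPKM in both NSC samples, was at 167, 159 and 159 in STO cells, a smaller difference of 0.87 ± 0.05 (SE). Jund was listed at 44.8 and 64.4 FPKM in NSCs and at 56.3, 47.8 and 48.6 in STO cells, so that the groups overlapped (limma adjusted p = 0.65). Nr3c1, the glucocorticoid receptor gene, rose from 8.08 ± 0.340 (SD, n = 2) to 19.0 ± 0.507 FPKM (SD, n = 3), with limma adjusted p = 3e-06.

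Among 5 growth genes that respond to serum, 4 were higher in STO cells and 1 was lower, with a median difference of 1.06. Ccn1, a secreted matricellular protein gene, was listed at 5.94 and 5.42 FPKM in NSCs and at 227, 214 and 228 in STO cells, with limma adjusted p = 7.8e-09. Ccn2, of the same family, rose by 3.72. Srf, the serum response factor gene, rose by 1.06 (limma adjusted p = 4.5e-06). Egr1 was high in both cell types, at 143 ± 12.5 FPKM (SD, n = 2) and 170 ± 4.86 (SD, n = 3), with limma adjusted p = 0.016, or 0.053 without NSC replicate 1. Myc fell from 72.3 ± 11.4 (SD, n = 2) to 40.4 ± 0.682 FPKM (SD, n = 3), with limma adjusted p = 0.00026.

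**Figure D4:**
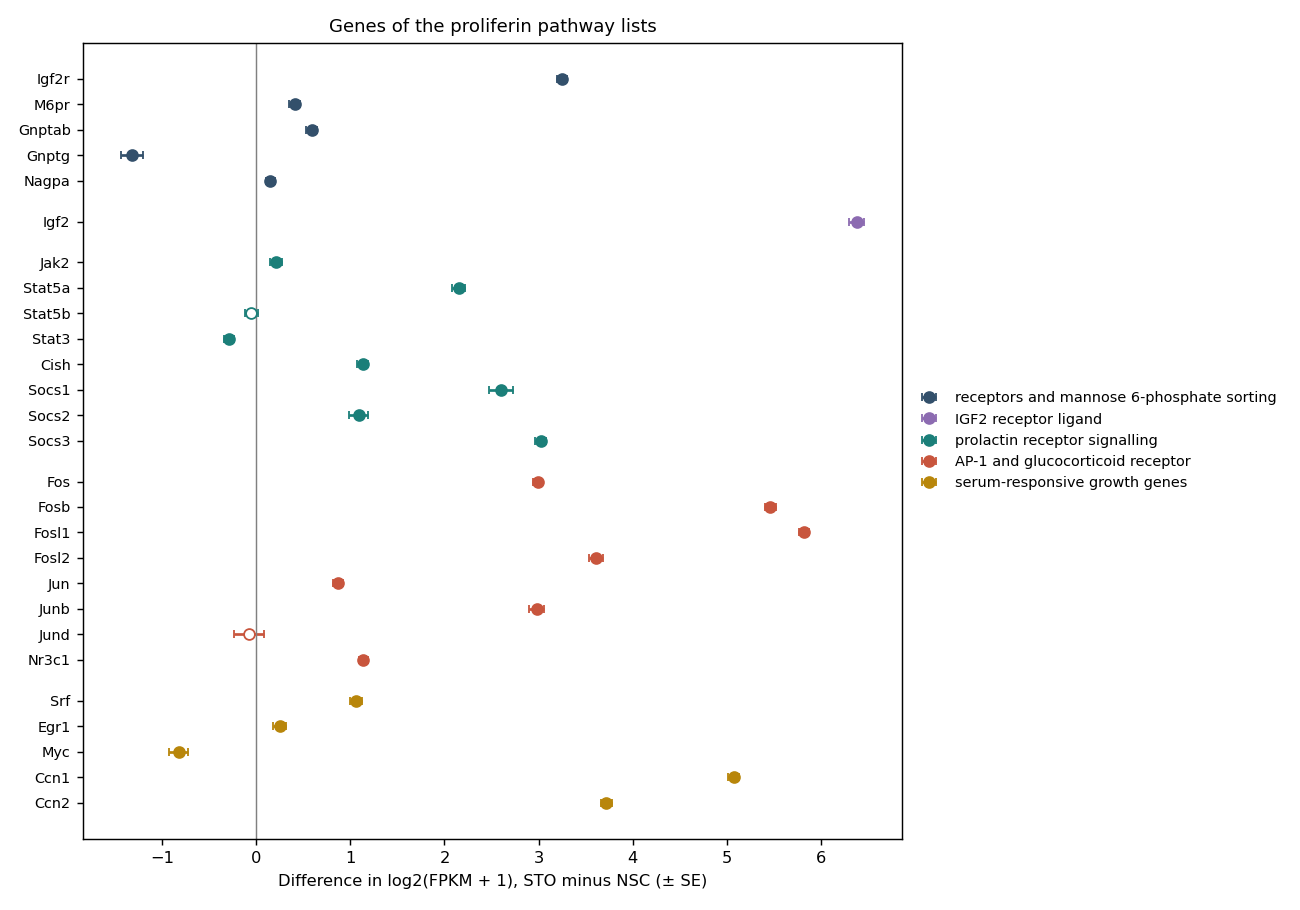
Difference in log2(FPKM + 1), STO minus NSC, with its standard error from limma, for the 27 tested genes of the pathway lists, coloured by list. Filled points passed the threshold, open points (Stat5b and Jund) did not, and Gnptg, Stat3 and Myc are the 3 that were lower in STO cells.

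The genes within 500 kb of a proliferin gene differed widely from it. Of 9 such genes, 7 were tested, and 5 were called higher and 2 lower in STO cells, with a median difference of 0.59. Over all genes tested, 41.9% were called higher and 43.7% lower, so a call is common for any gene. Nid1, which encodes the basement membrane protein nidogen and lies 245.7 kb from the nearest proliferin gene, was listed at 3.19 and 2.92 FPKM in NSCs and at 373, 402 and 377 in STO cells, a difference of 6.57 ± 0.06 (SE) with limma adjusted p = 5.2e-09. The genes next to the paralogs on either side showed smaller differences. Gpr137b, 165.7 kb from Prl2c5, was at 5.79 ± 0.858 FPKM (SD, n = 2) in NSCs and 9.20 ± 0.545 (SD, n = 3) in STO cells (limma adjusted p = 0.0011). Gpr137b-ps, its pseudogene 140.4 kb from Prl2c3, fell from 9.24 ± 0.236 (SD, n = 2) to 5.31 ± 0.253 FPKM (SD, n = 3), with limma adjusted p = 4.6e-05. These 2 may share reads with each other. Lgals8, which encodes a galectin, rose by 1.42, Heatr1 by 0.80 and Lyst by 0.55. Ero1b was at 1.52 ± 0.0996 FPKM (SD, n = 2) in NSCs and 1.26 ± 0.0670 (SD, n = 3) in STO cells. Its difference of -0.16 (limma adjusted p = 0.029) became 0.28 after quantile normalization, so that no direction can be given. Actn2 and Edaradd did not pass the minimum of 1 FPKM.

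**Figure D5:**
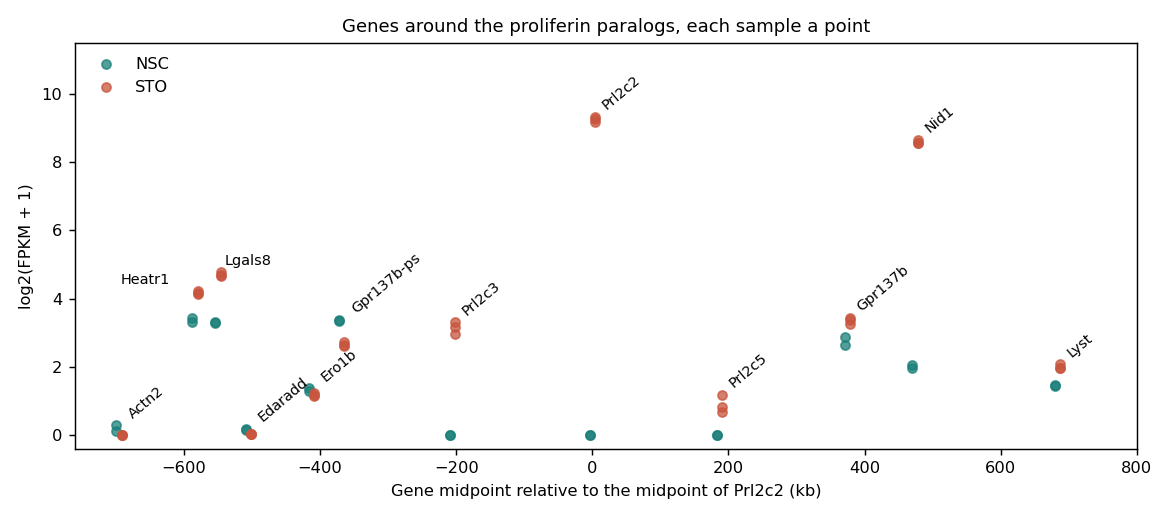
log2(FPKM + 1) of the genes within 500 kb of Prl2c2, Prl2c3 or Prl2c5 in each NSC and STO sample, by the distance of the gene's midpoint from that of Prl2c2, with the points of the cell types set slightly apart. Prl2c2 and Nid1 stand highest in STO cells, the genes between them and around them lie at intermediate or low levels, and the 3 proliferin genes are at 0 in NSCs.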

How the data were processed

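RNA-seq of 2 NSC and 3 STO samples was used. By the paper's methods and the submitters' processing notes, stranded mRNA libraries were read as pairs of 150 bases, trimmed, aligned to mm9 with HISAT2 (named as version 4.8.2) and quantified with Cufflinks 2.2.1 on RefSeq. The authors deposited FPKM with lower and upper bounds for each transcript, without read counts. How reads matching several paralogs were handled is not given in the sources used here. Read as counting error alone, the bounds implied 15.2 to 22.3 M fragments per sample.

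Rows were matched to symbols through RefSeq identifiers (39951 of 40201), with the table's assembly, GRCm38.p6, used for names only. Rows of 1 symbol were added together where their loci overlapped. Every member row had the status OK. Genes were tested on log2(FPKM + 1) by moderated statistics with a mean-variance trend in limma 3.58.1 (R 4.3.3). This step was also run on simulated data. Far fewer genes changed there than were called here, so the simulation does not cover the present setting. Sequences were compared with Biopython 1.88. Other steps used Python 3.11.15.

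Members and lists were chosen with earlier results of these data known. Named genes were the members, the genes of the lists and markers (2 of which are not reported here, for a reason unrelated to their values, and were left out of every count and sum over the lists), genes within 500 kb, and the 5 nearest by Euclidean distance. Alternatives changed the pseudocount, filter, scaling, trend, replicate block, summing, bounds and samples included.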

Additional observations from a re-analysis of the deposited data

How the results depend on the processing

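With a pseudocount of 0.1, the differences became 12.58 for Prl2c2, 6.32 for Prl2c3 and 3.24 for Prl2c5. Quantile normalization gave 9.41 for Prl2c2. With the lower bounds in STO cells, Prl2c3 was at 2.93 and Prl2c5 at 0.47. Leaving out a replicate gave 9.22 to 9.30, 3.08 to 3.24 and 0.75 to 1.00. The mean share of Prl2c2, 98.6%, was 98.3% to 98.9% by the bounds, that of Prl2c3, 1.28%, was 1.05% to 1.51%, and that of Prl2c5, 0.141%, was 0.064% to 0.23%. With NM_011954 added, a choice made after seeing the data, the share of Prl2c3 was 1.4%.

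Under a further limit, an absolute difference of 1 or more, calls numbered 2103 in the higher and 2617 in the lower direction. Of the listed pathway genes, 16 of the 22 called higher and 1 of the 3 called lower met this limit. With the replicate block, 4994 genes were higher and 5252 lower, against 5153 and 5375, while Nagpa, Jak2 and Ero1b lost their calls. The labels share numbers 1 and 2 between cell types, but the deviations of same-numbered samples correlated at only 0.008 and 0.061, so the numbers were not taken as pairs. Of 405 values for 34 genes under alternatives, 387 kept direction and call, 16 lost the call and 2 reversed: Jund without NSC replicate 2 (0.18, with -0.34 to 0.18 over the samples left out) and Ero1b after quantile normalization (0.28). The cause was not tested. Depth limits Prl2c5 and the other values under 1 FPKM most. Where 1 NSC sample was left out, the other was assumed to vary like the STO samples.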

Other observations

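Prl2c2 was followed, among the genes listed at 0 in both NSC samples, by Col3a1, Il1rl1, Arhgdib, Mmp3 and Dcn, which were named after their values were seen. Il1rl1, the receptor gene for interleukin 33 and known to be induced by serum in fibroblasts, was listed at 284, 282 and 286 FPKM in the STO replicates. Arhgdib, best known from blood cells, was at 274, 281 and 280 FPKM. Mmp3, a matrix-degrading protease gene, was at 232, 218 and 235 FPKM, and Dcn, the proteoglycan decorin, at 178, 174 and 184 FPKM. In each STO replicate Prl2c2 lay above all 5.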
